A study of Mus musculus with 1 sample.

Results

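CD8 T cells of the 2-week-old mouse pancreas were identified in 1 single cell library, as 206 of 10129 retained barcodes, out of 11789 barcodes deposited. The study compared pancreata with and without SCAP, the sterol-sensing escort protein that moves the transcription factors SREBP1 and SREBP2 to the Golgi for activation. The library described here, with the sample title wildtype, had the genotype *Scap* f/f. In these controls both *Scap* alleles carried loxP sites and no Cre recombinase was present, so *Scap* was intact. Dissociated cells of 5 to 6 pancreata, from males and females in equal number, were pooled into it. The library of Cre-bearing pancreata was not analysed here. With 1 pooled library there was no replicate, the animals could not be told apart, and no test between conditions or classes was possible. Every interval given is an exact 95% interval that covers counting error only.

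Each deposited value is a count of unique molecular identifiers (UMIs), 1 for each captured RNA molecule. A CD8 T cell was a barcode with more than 800 and fewer than 10000 UMIs, under 15% of them mitochondrial. Receptor genes *Trac*, *Cd3d*, *Cd3e* and *Cd3g* had to give a sum of 2 UMIs or more, and it held at least 1 of the CD8 chains *Cd8a* and *Cd8b1*, and none of *Cd4* and *Cd40lg*. It held at most 1 UMI of the B cell genes *Cd79a*, *Cd79b* and *Ms4a1*, and at most 1 of *Ikzf2*, *Ctla4*, *Izumo1r*, *Zbtb16*, *Gzma* and *Xcl1*, which mark regulatory and innate-like T cells. It held no UMI of the proliferation genes *Mki67* and *Top2a*, and fewer than 10 of the collagens *Col1a1* and *Col3a1*. The UMIs of these genes chose the cells, and their values are a description.

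The 206 cells were 2.03% (1.77 to 2.33%) of retained barcodes and 18.3% (16.1 to 20.7%) of the 1124 that held at least 2 UMIs of the 4 T cell genes. They held 474713 UMIs, with a median of 1884 UMIs (852 to 7258) and 944.5 genes a cell. CD4 T cells, taken by the mirrored rule with a UMI of *Cd4* or *Cd40lg* and none of the CD8 chains, numbered 139 and held 296702 UMIs, with a median of 1834. A further 282 T cells within the same limits had no UMI of either coreceptor set (median 1339), and 4 had both. T cells with at least 2 UMIs of the 6 regulatory and innate-like genes, called regulatory and innate-like T cells below, numbered 152 (median 2169.5). B cells numbered 360, and 6207 fibroblasts, which should lack T cell transcripts, gave the background. None of these fibroblasts held a UMI of the leukocyte gene *Ptprc*, so they may understate stray immune transcripts.

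CD8 T cells recognise peptides on MHC class I through an alpha beta T cell receptor and the CD8 coreceptor, a dimer of alpha and beta chains, and kill through perforin and granzymes or by secreting cytokines. In the thymus the transcription factor RUNX3 silences *Cd4* and establishes the CD8 lineage, while ThPOK, encoded by *Zbtb7b*, does so for the CD4 lineage. In neonatal and lymphopenic mice, part of the naive CD8 pool takes on memory features without meeting a foreign antigen, with EOMES, a T-box factor, and the interleukin 2 and 15 receptor beta chain (virtual memory cells). RUNX and T-box factors bind short DNA motifs, which is why the start regions of 3 genes of the comparison with CD4 T cells are shown first. *Nkg7*, *Plac8* and *Runx3* rank 2, 5 and 9 among the 15 genes highest in CD8 T cells. All 3 hold a RUNX motif, unlike others of the 15.

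The 250 bases before the start of *Nkg7*, of the upstream start of *Runx3* and of *Plac8* were read from the RefSeq promoter table (GRCm38.p6). RefSeq places the starts of *Nkg7* and *Plac8* inside the gene spans of the annotation used elsewhere, by 65 and 40 bases, and those bases are not printed. The stretches shown, 5′ to 3′ on the gene's own strand, are chr7:43436888-43437072 (+) for *Nkg7*, chr4:135120395-135120644 (+) for *Runx3* and chr5:100572246-100572455 (-) for *Plac8*. Capitals mark the RUNX hexamers TGTGGT and TGCGGT and the T-box octamer AGGTGTGA, searched on both strands. On the other strand TGTGGT reads ACCACA and TGCGGT reads ACCGCA.
Nkg7: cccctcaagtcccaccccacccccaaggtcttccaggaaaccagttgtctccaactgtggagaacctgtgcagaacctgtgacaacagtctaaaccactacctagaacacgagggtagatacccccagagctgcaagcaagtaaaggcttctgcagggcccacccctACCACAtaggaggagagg
Runx3: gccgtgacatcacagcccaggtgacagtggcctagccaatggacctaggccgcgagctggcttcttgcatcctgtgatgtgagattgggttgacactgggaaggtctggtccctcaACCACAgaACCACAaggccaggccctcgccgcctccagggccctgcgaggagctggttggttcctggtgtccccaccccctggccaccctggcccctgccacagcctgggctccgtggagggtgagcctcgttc
Plac8: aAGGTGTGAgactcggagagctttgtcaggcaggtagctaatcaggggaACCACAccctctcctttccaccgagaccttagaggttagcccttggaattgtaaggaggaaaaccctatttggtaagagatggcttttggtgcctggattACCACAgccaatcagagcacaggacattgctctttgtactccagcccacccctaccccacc
Counted from the RefSeq starts, a RUNX hexamer stood 83 bases before the start of *Nkg7*, at 134 and 126 bases before that of *Runx3*, and at 201 and 101 bases before that of *Plac8*. The T-box octamer stood 249 bases before the start of *Plac8* and 14 before that of *Nkg7*, where it lies among the bases not printed and inside the annotated gene. The second starts of *Plac8* and *Runx3* in the table held neither motif. Of the 15 genes highest in CD8 against CD4 T cells, 12 were in the table and 6 of these (*Ly6c2*, *Myo1f*, *Nkg7*, *Plac8*, *Runx2* and *Runx3*) held a RUNX hexamer in at least 1 promoter. By promoter, 7 of their 18 held one. Among all 27025 genes of the table the share was 20.9%, and among all 32851 promoters 18.6%. Of the 15 lowest genes 10 were in the table and 4 held a hexamer, in 5 of 22 promoters. The T-box octamer was in 2 of the 12 (*Nkg7* and *Plac8*), in none of the 10, and in 1.30% of all genes (1.12% of promoters). These matches are of letters only and show no binding.

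The first 3 genes given are label markers, chosen as such with earlier results of these data known. The rule did not use them, but their being higher in CD8 T cells restates that choice and does not check the label. *Nkg7* (chr7:43437073-43438249, +), which encodes a membrane protein of cytotoxic granules, had 282 UMIs in 137 of 206 CD8 T cells. Its level, the summed UMIs per 1000000 UMIs of the class (CPM), was 594 CPM (527 to 668) in CD8 T cells and 10.1 CPM (2.09 to 29.5) in CD4 T cells, from 3 UMIs. The ratio of the levels was 58.8 (19.9 to 287). T cells with neither coreceptor stood between them at 225 CPM (184 to 273), and so did regulatory and innate-like T cells at 233 CPM (188 to 285). A *Nkg7* UMI was in 66.5% of CD8 T cells and in 0.499% of fibroblasts, whose median depth was 2694 UMIs. With each cell thinned to 800 UMIs the share was 35.0%, against 0.719% of CD4 T cells and 0.145% of fibroblasts.

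*Klrd1* (chr6:129591782-129598775, +), the CD94 chain that pairs with NKG2 receptors, had 72 UMIs in 51 CD8 T cells and 1 UMI in CD4 T cells. Its level was 152 CPM (119 to 191) against 3.37 CPM, a ratio of 45.0 (7.82 to 1802). *Eomes* (chr9:118478212-118486132, +) had 37 UMIs in 26 CD8 T cells, 12.6% of them, or 77.9 CPM (54.9 to 107), and none in CD4 T cells. Against the limit of 3 counts that a count of 0 allows, it was at least 7.71-fold higher in CD8 T cells. The exact lower limit of its ratio was 5.72 without the cells with signs of another cell described below. All 3 label markers were higher in CD8 than in CD4 T cells by more than the counting error, which follows from their choice. *Eomes*, the lowest in count, was seen in the fewest cells.

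**Figure D1:**
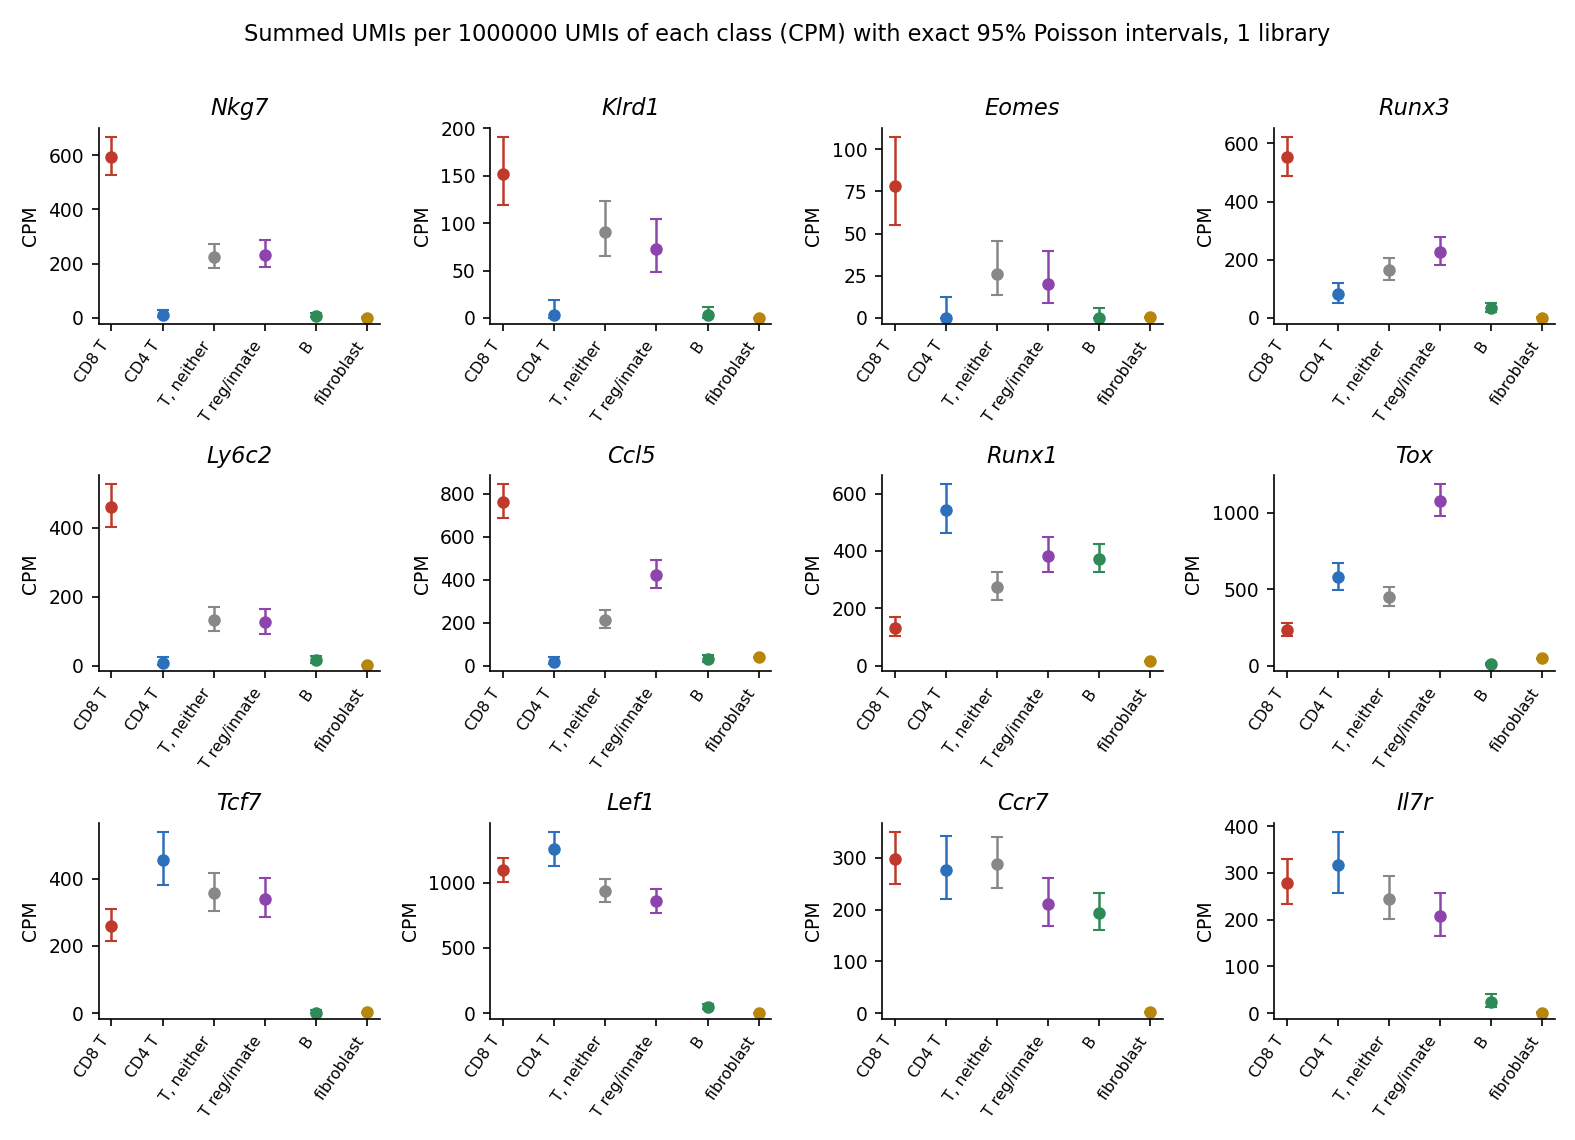
Levels in CPM (vertical axis, linear, a separate scale for each gene) of 12 genes in CD8 T cells, CD4 T cells, T cells with neither coreceptor, regulatory and innate-like T cells, B cells and fibroblasts of the 1 library. Points are summed levels and bars exact 95% Poisson intervals. *Nkg7*, at 594 CPM in CD8 and 10.1 CPM in CD4 T cells, *Klrd1*, *Eomes*, *Runx3* and *Ly6c2* are highest in CD8 T cells, and *Runx1*, *Tcf7* and *Lef1* are highest in CD4 T cells.

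The coreceptor chains were sparsely captured. *Cd8b1* (chr6:71322788-71337494, +), the beta chain, gave 378 UMIs in 180 cells, or 796 CPM, and *Cd8a* (chr6:71373427-71379173, +), the alpha chain, gave 168 UMIs in 115 cells, or 354 CPM. Both chains were seen in 89 cells, *Cd8a* alone in 26 and *Cd8b1* alone in 91. The 63 cells chosen on 1 CD8 UMI had *Nkg7* at 547 CPM and *Lef1* at 1197 CPM. The 282 T cells just outside that limit, with no CD8 UMI, had 225 and 938 CPM. At the limit on T cell genes, the 31 members with 2 UMIs had *Nkg7* at 492 CPM, and 20 barcodes with 1 such UMI that met the rest of the rule had 501 CPM. *Lef1* stood at 1167 CPM in the former and 619 CPM in the latter. At the limit on regulatory and innate-like genes, the 46 members with 1 such UMI had *Nkg7* at 602 CPM, and the 19 barcodes with 2 had 212 CPM. *Nkg7* was therefore about as high just outside the limit on T cell genes as inside it, and lower just outside the other limits.

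Transcripts of other cells were counted in the same barcodes. The acinar list, digestive enzyme genes of exocrine cells, summed to 15534 UMIs in CD8 T cells, 32723 CPM against 18918 CPM in CD4 T cells, and all 18 of its genes were present. *Ctrb1*, chymotrypsinogen, was the most abundant of them with 3909 UMIs, and 12 CD8 T cells held 74.7% of the list's UMIs. Red blood cell genes summed to 6604 CPM against 8894 CPM in CD4 T cells, with 91.9% of the globin UMIs in 3 CD8 T cells. The fibroblast list summed to 1218 CPM (1422 in CD4 T cells, 57865 in fibroblasts), with *Col3a1* its most abundant gene at 233 UMIs. The B cell list summed to 299 CPM (442 in CD4 T cells, 24931 in B cells), 80 of its 142 UMIs from *Ighm*, with the B cell surface gene *Ms4a1* and the adaptor *Bank1* at 0. The rule itself limited *Cd79a*, *Cd79b* and *Ms4a1* of this list and *Col1a1* and *Col3a1* of the fibroblast list. The myeloid list summed to 46.3 CPM (80.9 in CD4 T cells), with 13 of 16 genes at 0, among them *Lyz2*, *C1qa* and *Csf1r*, and *Fscn1* its most abundant with 11 UMIs. The endothelial list summed to 158 CPM (377 in CD4 T cells). The zymogen granule gene *Sycn* and *Ighm* were the only genes of these lists at least 2-fold higher in CD8 than in CD4 T cells.
Taking at least 100 acinar UMIs, 20 globin UMIs, 3 UMIs of *Acta2*, *Myh11* and *Tagln* or 2 of *Fscn1* as signs of another cell in the droplet, 16 of 206 CD8 T cells (7.77%) and 7 of 139 CD4 T cells had one. Scrublet, a doublet caller, marked 2 of the 206 and 502 of the 10129 retained barcodes (4.96%). Each count between the classes was therefore also made without the cells with such signs.

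Among 5073 genes with at least 20 UMIs in CD8 and CD4 T cells together, 94 (1.85%) were at least 2-fold higher in CD8 T cells and 144 (2.84%) at least 2-fold lower, with 20 CPM added to each level. Leaving out the genes of the rule, these were 91 and 142. The median ratio over all genes was 0.956. The shares of 1.85% and 2.84% are the background for the counts of each list below. The minimum held for the sum of both classes, so a gene absent from CD4 T cells passed it only through CD8 T cells. Without cells with signs of another cell, 98 genes were higher and 102 lower, and 75 of the 91 and 83 of the 142 remained past 2-fold. Scaled by median of ratios, which moves the median ratio by 0.111 on the log2 scale, 137 were higher and 100 lower, and with enzyme, ribosomal and mitochondrial genes left out of the total these were 153 and 148. With at least 2 coreceptor UMIs required of CD8 and CD4 T cells alike, 3475 genes were tested and 212 were higher and 169 lower. Which side held more genes is therefore not read as a result. The lower side also lost a larger share of its genes than the higher side when those cells were left out.

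*Ccl5*, *Nkg7* and *Ly6c2* led the higher side. *Ly6c2* (chr15:75108158-75111970, -), which encodes the surface protein Ly6C and is widely used as a memory marker, had 219 UMIs in 75 CD8 T cells and 2 in CD4 T cells. Its level was 461 CPM (402 to 527) against 6.74 CPM, a ratio of 68.4 (18.7 to 569). *Ccl5* (chr11:83525778-83530518, -), a chemokine that memory T cells hold ready for release, had 361 UMIs in only 53 CD8 T cells, 760 CPM (684 to 843) against 16.9 CPM, a ratio of 45.1 (19.2 to 140). In contrast to *Ly6c2*, a large part of the *Ccl5* sum came from few cells: 2 cells with 127 and 43 UMIs held 47.1% of it, and the level without them was 410 CPM. *Plac8* had 111 UMIs in 72 CD8 T cells and 1 in CD4 T cells, 234 CPM against 3.37 CPM, with 36.8% of fibroblasts also holding a UMI.

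The long non-coding RNA gene *Gm44174* (chr6:71353035-71373284, +) had 126 UMIs in 77 CD8 T cells, 265 CPM (221 to 316), and none in CD4 T cells. It was at least 26.3-fold higher against the limit of 3 counts. The exact lower limit of its ratio was 20.5 without cells with signs of another cell. It lies between the coreceptor genes on their strand. It begins 15541 bases after the end of *Cd8b1* and ends 143 bases before the start of *Cd8a*, so its cells were those chosen for UMIs of its neighbours. The other higher genes were *AW112010* with 516 against 60.7 CPM (a ratio of 6.65 with 20 CPM added, and 2.97 with no limit on the regulatory and innate-like genes), *Fgf13*, an intracellular member of the FGF family, with 265 against 30.3 CPM, and *Fam241a* with 192 against 27.0 CPM. *Chsy1*, a chondroitin sulfate synthase, had 105 against 10.1 CPM. *Myo1f*, a class I myosin of blood cells, had 77.9 CPM against 1 UMI. *Runx2*, a paralogue of *Runx3*, and *Bend4* had 65.3 and 63.2 CPM against no UMI, at least 6.46-fold and 6.25-fold higher against the limit of 3 counts. Without cells with signs of another cell, the exact lower limits of their ratios were 4.34 and 4.51. Together with *Runx3*, *Klrd1* and *Eomes*, the genes named from *Ccl5* to *Bend4* were the 15 highest.

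The lower side needed a check of single cells. Of its 15 leading genes, 12 had over 50% of their CD4 UMIs in 1 CD4 T cell, among them *Myh11* (35 of 35), *Acta2* (55 of 60) and *Tagln* (39 of 43), which encode contractile proteins of smooth muscle. The same cell held 69 of 70 UMIs of the adhesion gene *Ctnna3*, and 129 of the 138 UMIs of *Acta2*, *Myh11* and *Tagln* in CD4 T cells. No CD8 T cell held more than 1. Of the other 3, *St8sia6* (chr2:13651021-13794064, -), a sialyltransferase, had no UMI in CD8 T cells and 41 in CD4 T cells. Without cells with signs of another cell it was at least 21.5-fold lower in CD8 T cells against the limit of 3 counts, with an exact upper limit of the ratio of 0.0598. *Tgfbr3*, a coreceptor for TGF-beta, stood at 23.6 against 216 CPM in those cells, a ratio of 0.110 (0.0499 to 0.216). *Vav3*, a guanine nucleotide exchange factor, stood at 16.5 against 119 CPM. Also in those cells, the MHC class II genes *H2-Eb1* and *H2-Aa* had no UMI in CD8 T cells against 29 and 21 in CD4 T cells, and the class II chaperone *Cd74* had 3 against 25.

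**Figure D2:**
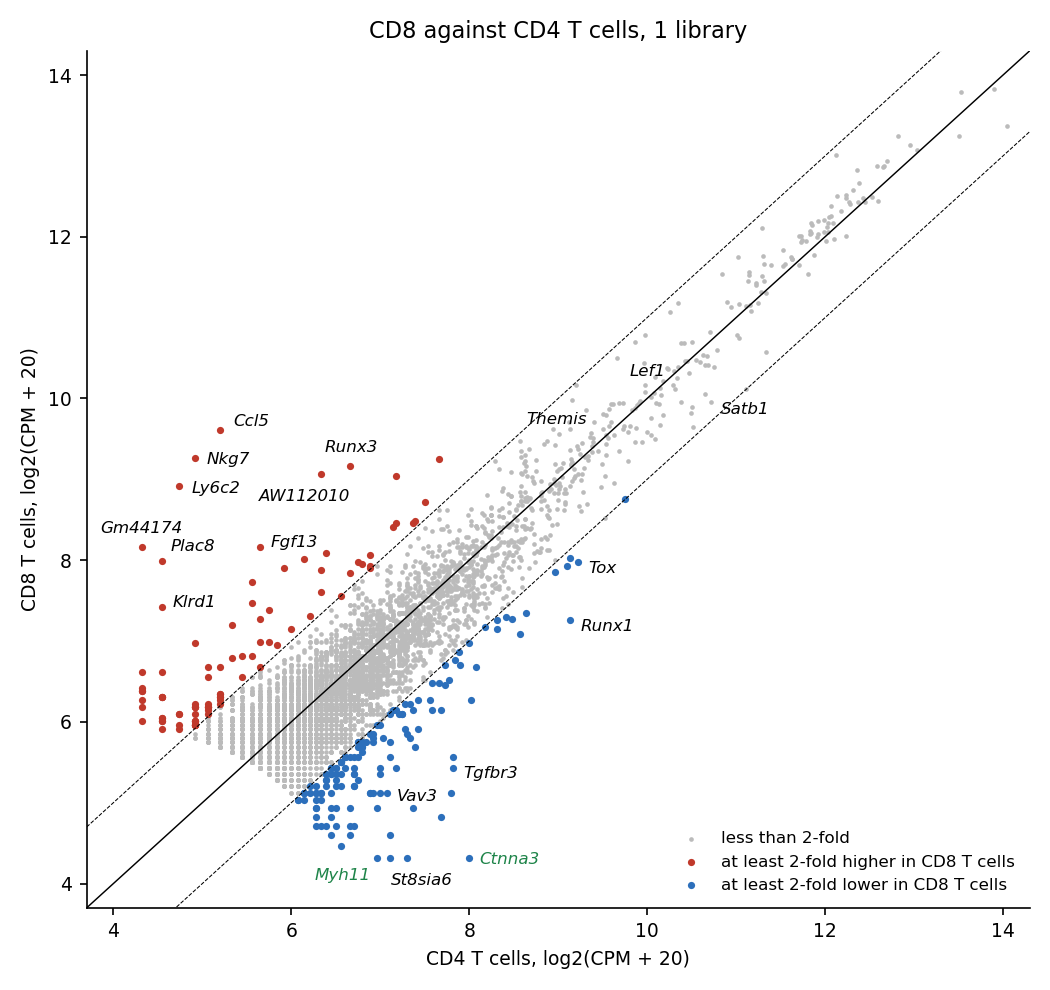
Level of each gene in CD8 T cells (vertical) against CD4 T cells (horizontal), both as log2(CPM + 20), for the genes tested that the membership rule did not use. The solid line marks equal levels and dashed lines 2-fold; red and blue points are the 91 genes higher and the 142 lower. Names in green, *Ctnna3* and *Myh11*, are genes with over 50% of their CD4 UMIs in 1 CD4 T cell. *Nkg7*, *Ccl5* and *Ly6c2* lie far above the upper line, *Runx1*, *Tox* and *Tgfbr3* below the lower one, and *Lef1* near equality.

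Of the 10 regulators of the CD8 and CD4 lineage choice, 1 was higher in CD8 T cells and 3 were lower, against 1.85% and 2.84% of all genes. The list's median ratio was 0.615 (0.956 over all genes). *Runx3* (chr4:135120652-135177990, +) was the higher one, with 262 UMIs in 124 CD8 T cells (60.2%) and 24 UMIs in CD4 T cells. Its level was 552 CPM (487 to 623) against 80.9 CPM (51.8 to 120), a ratio of 6.82 (4.49 to 10.8). T cells with neither coreceptor had 165 CPM and regulatory and innate-like T cells 228 CPM. *Runx1* (chr16:92601466-92826149, -), the paralogue that acts earlier in the thymus, ran the other way, at 133 CPM (102 to 170) against 543 CPM (462 to 633), a ratio of 0.245 (0.180 to 0.329). The pair of paralogues thus had opposite order in CD8 and CD4 T cells, while their shared partner *Cbfb* stood at 114 against 118 CPM.

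*Tox*, a factor needed for CD4 lineage development, stood at 232 CPM (190 to 279) in CD8 T cells, 576 CPM (493 to 669) in CD4 T cells and 1077 CPM in regulatory and innate-like T cells, and its ratio with 20 CPM added, 0.422, was 0.503 with no limit on the regulatory and innate-like genes. *Gata3*, a regulator of CD4 lineage and type 2 helper fate, stood at 48.5 against 118 CPM, a ratio of 0.411 (0.232 to 0.715). *Satb1*, a chromatin organiser, and *Bcl11b*, a T cell identity factor, had ratios of 0.588 (0.517 to 0.669) and 0.625 (0.504 to 0.775), short of 2-fold. *Themis*, which tunes receptor signals during thymic selection, was the only other regulator above 1 beyond its interval, at 691 against 448 CPM, a ratio of 1.54 (1.26 to 1.90). Of the 6 helper lineage genes tested that the rule did not use, 3 were lower (*Trat1*, *Cd5* and *Maf*) and none higher. Their median was 0.501, and 2.84% of all genes were lower. *Zbtb7b* had 1 UMI in CD8 T cells and 12 in CD4 T cells, a ratio of 0.0521 (0.00122 to 0.352). *Cd5*, an inhibitory coreceptor, stood at 88.5 against 209 CPM, a ratio of 0.423 (0.279 to 0.636).

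Of the 3 receptor complex genes outside the rule none was past 2-fold, with *Trbc2*, a beta chain constant gene, at 946 against 927 CPM, *Trbc1* at 516 against 576 CPM, and the signalling chain *Cd247* at 286 against 448 CPM. Of 21 receptor signalling genes 1 was higher and 1 lower, with a median of 0.881. Among all genes 1.85% were higher and 2.84% lower, so these counts are not read as a result about the list. The higher one, *Thy1*, the pan-T surface glycoprotein CD90, stood at 228 against 91.0 CPM, a ratio of 2.50 (1.63 to 3.97). The lower one, *Rasgrp1*, which activates Ras downstream of the receptor, stood at 69.5 against 172 CPM, a ratio of 0.404 (0.253 to 0.639). The kinase *Lck*, which binds both coreceptors, stood at 270 against 243 CPM, a ratio of 1.11 (0.826 to 1.50). *Ptpn22*, a phosphatase that limits receptor signals, had a ratio of 1.63 (1.31 to 2.05), and the costimulatory receptor *Cd28* one of 0.600 (0.464 to 0.776).

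Of 20 genes of naive and quiescent T cells tested, 1 was higher (*Ccr9*), 2 lower (*Bach2* and *Igfbp4*) and 17 were within 2-fold, with a median of 0.848. With 1.85% of all genes higher and 2.84% lower, these few calls are not read as a result about the list. Without cells with signs of another cell, *Bach2* was no longer past 2-fold. *Lef1*, a transcription factor of naive T cells, had 519 UMIs in 160 CD8 T cells (77.7%), 1093 CPM (1001 to 1191) against 1254 CPM (1130 to 1388). The lymph node homing receptor *Ccr7* stood at 297 CPM (250 to 350) against 276 CPM, a ratio of 1.07 (0.813 to 1.43). *Tcf7*, the partner of *Lef1*, stood at 259 against 455 CPM, 0.569 (0.442 to 0.733). The egress receptor *S1pr1* (377 against 489 CPM), the interleukin 7 receptor *Il7r* (278 against 317 CPM) and the quiescence factor *Klf2* (495 against 475 CPM) differed less. Of these transcripts, *Tcf7*, *S1pr1* (ratio 0.772, 0.616 to 0.967) and, at the edge of its interval, *Lef1* (0.872, 0.762 to 0.999) were lower by more than the counting error. *Ccr7*, *Il7r* and *Klf2* did not differ by more than it. The *Lef1* ratio with 20 CPM added was 0.874, and 0.969 when scaled by median of ratios. Thinned to 800 UMIs, *Lef1* was in 56.8% of CD8 and 56.1% of CD4 T cells, and *S1pr1* in 26.2% and 21.6%. Neither is therefore read as lower. *Tcf7* was in 20.9% and 36.0%.
*Bach2*, a repressor that restrains effector genes, stood at 411 against 843 CPM, and its call rests on the threshold, since the ratio with 20 CPM added was 0.499. *Igfbp4*, an IGF binding protein, stood at 135 against 337 CPM, a ratio of 0.434 with 20 CPM added. The ratio was 0.0687 with the pooled profile of all deposited barcodes subtracted as a stand-in for free RNA. *Ccr9*, a receptor for homing to gut and thymus, had 39 UMIs in CD8 and 5 in CD4 T cells, a ratio of 4.88 (1.92 to 15.8).

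Of 16 memory and virtual memory genes tested, 4 were higher in CD8 T cells (*Eomes*, *Ly6c2*, *Il2rb* and *Il18rap*), 12 were within 2-fold and none was lower. Their median was 1.33, and among all genes 1.85% were higher and 2.84% lower. Each of the 4 had under 20 UMIs in CD4 T cells and met the minimum only through CD8 T cells, so the count is a description. The 21 genes of the list summed to 3497 CPM in CD8, 2059 CPM in CD4 and 4507 CPM in regulatory and innate-like T cells, but also to 10247 CPM in fibroblasts, so the sum is not particular to T cells. Its most abundant gene was *Crip1*. *Il2rb*, the beta chain shared by the interleukin 2 and 15 receptors, had 75 UMIs in 53 cells, 158 CPM (124 to 198) against 27.0 CPM, a ratio of 5.86 (2.83 to 14.1). Its UMIs were in 25.7% of CD8 and 27.0% of regulatory and innate-like T cells (thinned 10.2% and 11.2%), so it did not set those classes apart. *Il18rap*, an interleukin 18 receptor subunit, had 23 UMIs against 2, a ratio of 7.19 (1.78 to 62.9). The survival gene *Bcl2* stood at 691 against 361 CPM, 1.92 (1.54 to 2.41). *Cd44*, the adhesion receptor by which memory cells are usually gated, did not follow, at 63.2 against 60.7 CPM, a ratio of 1.04 (0.562 to 1.98). *Tbx21*, which encodes T-bet, had 15 UMIs against 1. *Cxcr3*, a receptor for interferon-induced chemokines, had 18 against 0, at least 3.75-fold higher against the limit of 3 counts.

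Memory and naive transcripts were then counted cell by cell, with a memory set of genes already known to differ between CD8 and CD4 T cells, *Nkg7* and the other label markers among them. A UMI of *Eomes*, *Nkg7*, *Klrd1*, *Ccl5*, *Il2rb* or *Ly6c2* was in 166 CD8 T cells, 80.6% (74.5 to 85.8%), against 7.91% of CD4 T cells and 3.88% of fibroblasts. It was in 57.2% of regulatory and innate-like T cells and 30.5% of T cells with neither coreceptor. With cells thinned to 800 UMIs the shares were 56.8% of CD8 T cells, 4.32% of CD4 T cells, 35.5% of regulatory and innate-like T cells, 24.1% of T cells with neither and 1.18% of fibroblasts. A UMI of *Ccr7*, *Lef1*, *Tcf7* or *S1pr1* was in 92.7% of CD8 and 92.1% of CD4 T cells, thinned 79.6% and 82.7%. The distance of CD8 from CD4 T cells on the first set follows from the choice of its genes, and *Nkg7* alone was in 137 of the 166 cells. Both sets were seen in 152 CD8 T cells (73.8%), only the memory set in 14, only the naive set in 39 and neither in 1. After thinning, 86 cells (41.7%) held both, 31 the memory set alone, 78 (37.9%) the naive set alone and 11 neither. A cell held a median of 2 memory set UMIs (0 to 131) and 4 naive set UMIs (0 to 23).

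**Figure D3:**
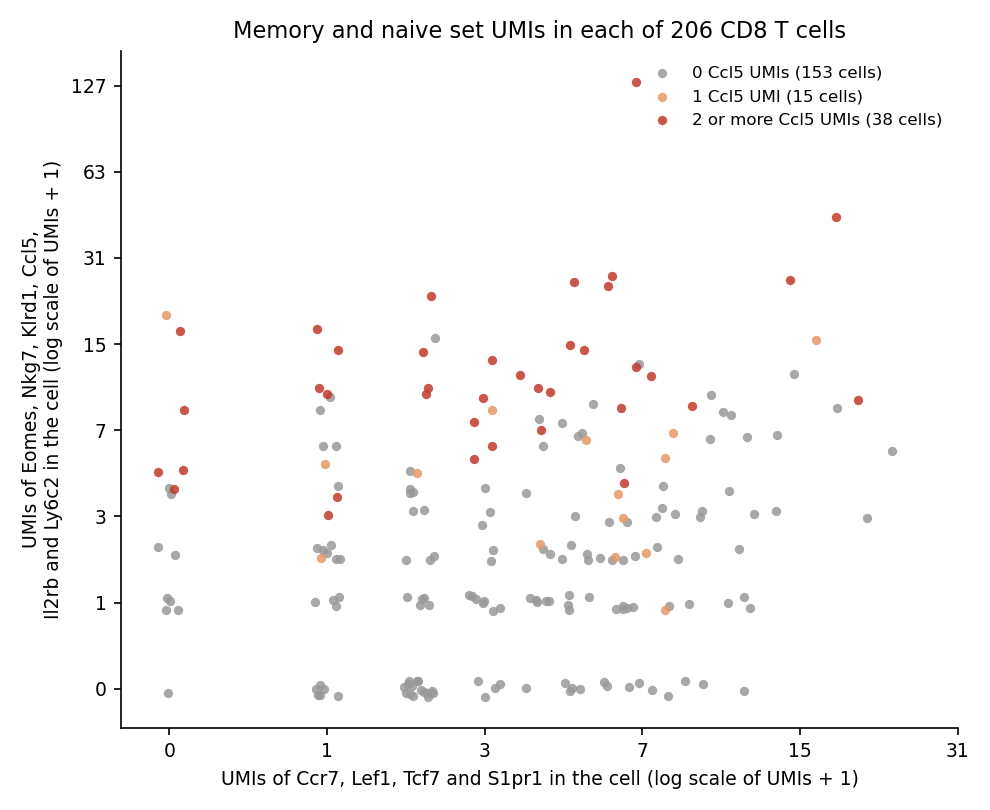
UMIs of the 6 memory set genes (vertical) against UMIs of the 4 naive set genes (horizontal) in each of the 206 CD8 T cells, on log scales of UMIs + 1, with points shifted slightly at random so that cells with the same counts can be seen. Colour gives the *Ccl5* UMIs of the cell, which are also part of the memory set. The 152 cells with both sets fill the middle, the 14 with the memory set alone lie on the left edge and the 39 with the naive set alone on the lower edge.

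Most effector genes had few UMIs. Of 21 cytotoxic and effector genes, 15 had under 20 UMIs in CD8 T cells. Of these, 5 (*Gzmb*, *Gzmk*, *Ifng*, *Il2* and *Ccl3*) had none, for which the limit of 3 counts is 6.32 CPM. Of 32285 genes in all, 5073 had at least 20 UMIs in CD8 and CD4 T cells together. Counts under 20 UMIs were thus common, and in this and later lists they are not read as a result about the list. *Prf1*, perforin, had 9 UMIs in 9 cells, *Gzmm* 10 UMIs in 7 cells and the chemokine *Ccl4* 13 UMIs in 9 cells. *Gzma* had 4 UMIs, but was limited by the rule. Of the 6 genes tested, 3 were higher (*Nkg7*, *Ctsw* and *Ccl5*) and none lower, with a median of 2.60. Among all genes 1.85% were higher. Each of the 3 had under 20 UMIs in CD4 T cells and met the minimum only through CD8 T cells, so the count is a description. *Ctsw*, a cathepsin of cytotoxic lymphocytes, had 113 UMIs in 76 cells, 238 CPM (196 to 286) against 50.6 CPM, a ratio of 4.71 (2.74 to 8.69). *Srgn*, the proteoglycan of secretory granules, stood at 438 against 361 CPM. Of the granule genes tested, *Nkg7*, a label marker, and *Ctsw* were those past 2-fold higher in CD8 than in CD4 T cells. Outside the rule, *Gzmb* and *Gzmk* were at 0, and *Prf1* and *Gzmm* were low, with 9 and 10 UMIs.
Of 22 NK family receptor genes, 9 had no UMI in CD8 T cells, among them *Klrg1*, *Klrb1c* and *Ncr1*, and 20 had under 20 UMIs. *Klrd1*, a label marker that met the minimum only through CD8 T cells, was the higher one of the 2 tested, whose median was 4.49. Its usual partner *Klrc1* had 3 UMIs and the activating receptor *Klrk1* had 1. The adaptor *Hcst* stood at 645 against 388 CPM, 1.66 (1.34 to 2.08).

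Among tissue residence genes, 2 of 6 tested were higher (1.85% of all genes). Both met the minimum of 20 UMIs only through CD8 T cells, so the count is not read as a result about the list. *Itgae*, the CD103 integrin chain, had 27 UMIs in 24 CD8 T cells and none in CD4 T cells, at least 5.63-fold higher against the limit of 3 counts. *Cxcr6*, a chemokine receptor of resident T cells, had 28 UMIs against 1, a ratio of 17.5 (2.89 to 716). The 1 lower gene, *Itga1*, had 20 of its 22 CD4 UMIs in the CD4 T cell with smooth muscle transcripts. *Cd69*, the early activation marker, did not differ by more than the counting error, at 96.9 against 121 CPM, and *Zfp683*, which encodes HOBIT, had 1 UMI. The inhibitory receptors *Pdcd1* and *Havcr2* had no UMI in CD8 T cells, *Lag3* had 1 and *Tigit* 3. Of the 3 genes of that list tested outside the rule, *Tox*, given above, was the 1 lower gene, with a median of 0.509. The inhibitory receptor *Btla* had 23 UMIs, 48.5 against 115 CPM, a ratio of 0.423 (0.238 to 0.739), and was past 2-fold only without cells with signs of another cell. In those cells *Nr4a2*, a nuclear receptor, was also past 2-fold higher. The residence list as a whole summed to 438 CPM in CD8, 445 CPM in CD4 and 1020 CPM in regulatory and innate-like T cells, so its sum did not set CD8 apart from CD4 T cells.

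Of 13 homing genes, 2 were higher and 1 lower, against 1.85% and 2.84% of all genes, with a median of 0.980. *Cxcr4*, the CXCL12 receptor, stood at 122 against 43.8 CPM, 2.79 (1.51 to 5.55), and was one of the higher genes. The laminin receptor chain *Itga6* was the lower one, at 31.6 against 87.6 CPM. Of 7 genes tested from a list of recent thymic emigrant and neonatal genes, 2 were higher (*Ccr9* and *H2-Q7*) and 2 lower (*Sox4* and *Igf2bp3*), with a median of 1.14. Without cells with signs of another cell, *Igf2bp3* was the 1 lower gene of 6 tested. *H2-Q7*, a non-classical class I gene, stood at 219 against 40.4 CPM, a ratio of 5.42 (2.97 to 10.8). *Ccr9*, *H2-Q7* and *Cxcr4* each had under 20 UMIs in CD4 T cells and met the minimum only through CD8 T cells. The counts of higher genes in these lists are therefore a description. *Igf2bp3*, an RNA-binding protein of fetal lymphocytes, had 26 UMIs in 20 CD8 T cells, 54.8 against 142 CPM, a ratio of 0.387 (0.228 to 0.646). The recombinase genes *Rag1* and *Rag2*, *Dntt* and the fetal regulators *Lin28b* and *Hmga2* had no UMI. *H2-Q7* shares sequence with its Qa-2 neighbours, and reads may be split among them.

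Among all genes tested, 1.85% were higher and 2.84% lower, which is the background for the lists of general cell state as for those above. None of 10 interferon response genes (median 1.02) and none of 11 MHC class I presentation genes (median 1.06) was past 2-fold, with *B2m*, the class I light chain, at 1213 against 1072 CPM, although *Ifi27l2a*, an interferon-induced gene, was lower without cells with signs of another cell. Of 13 cytokine receptor genes *Il2rb* alone was higher (median 0.875), and the interferon gamma receptor chain *Ifngr1* stood at 187 against 84.3 CPM, 2.23 (1.41 to 3.62), short of 2-fold once 20 CPM was added. Of 13 immediate early and stress genes, the phosphatase *Dusp2* was higher (175 against 60.7 CPM), and *Egr1* (105 against 236 CPM) and *Nr4a1* (37.9 against 138 CPM), which receptor signals induce, were lower, with a median of 0.897. Of these, *Egr1* was no longer past 2-fold without cells with signs of another cell. None of the 7 cell cycle genes tested was called (median 1.32), but the rule had removed cells with *Mki67* or *Top2a*.
The pathway the study addressed was thinly read. Of 26 sterol and fatty acid synthesis genes 21 had under 20 UMIs in CD8 T cells, and the list summed to 617 CPM against 772 CPM in CD4 T cells. *Scap* had 18 UMIs in 18 CD8 T cells, 37.9 CPM (22.5 to 59.9) against 33.7 CPM. Of 11 tested, *Srebf2*, which encodes SREBP2, was the 1 lower gene, at 48.5 against 128 CPM, a ratio of 0.378 (0.215 to 0.651), and none was higher (median 0.956).

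Since *Ccl5* was in 53 cells only, the CD8 T cells were also split by it, a choice made after its values were seen. Cells with at least 2 *Ccl5* UMIs numbered 38 (18.4%), cells with 1 numbered 15 and cells with none 153. Of 3175 genes with at least 20 UMIs in the first and last groups, 31 (0.976%) were at least 2-fold higher in the first and 58 (1.83%) at least 2-fold lower, with 50 CPM added. Median depth was 2326.5 UMIs in the first group and 1732 in the last, and acinar genes summed to 8349 and 31948 CPM. Differences in depth and in transcripts of other cells between these groups were not tested as a source of the contrasts.

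Some memory genes were higher in the *Ccl5* group and others were not. *Ly6c2* stood at 876 CPM (707 to 1074) against 303 CPM (246 to 369), and *Il2rb* at 349 CPM (245 to 481) against 102 CPM (70.2 to 143). *Klrd1* stood at 273 against 108 CPM, 2.53 (1.49 to 4.25). *Gpr183*, an oxysterol receptor that guides lymphocytes, stood at 424 against 155 CPM, 2.74 (1.79 to 4.19). *Hopx*, a homeodomain-only cofactor, and *Ctla2a*, a cathepsin inhibitor, named here after their values were seen, had ratios of 3.05 (1.53 to 6.08) and 3.28 (1.85 to 5.83). *Nkg7* differed less, at 782 against 535 CPM, 1.46 (1.11 to 1.91). *Eomes* (75.4 against 68.0 CPM) and *Runx3* (537 against 560 CPM) did not differ by more than the counting error. The interval of the *Eomes* ratio, 0.427 to 2.58, holds 2-fold in either direction, so its levels are not read as equal. *Eomes* was seen in 6 of the 38 cells of the *Ccl5* group and 15 of the 153 without *Ccl5*. *Runx3* was seen in 25 and 90 of these cells, and *Nkg7* in 31 and 94. Each was thus seen in some cells of both groups.

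Among naive genes, *Lef1* was lower in the *Ccl5* group, at 697 CPM (548 to 875) against 1240 CPM (1122 to 1367). *Ccr7* (320 against 315 CPM), *Tcf7* (ratio 0.744, 0.439 to 1.21) and *S1pr1* (0.864, 0.579 to 1.26) did not differ by more than the counting error. *Ccr7* without cells with signs of another cell was 204 against 331 CPM, a ratio of 0.616 (0.356 to 1.01). *Il7r* was higher, at 415 against 229 CPM, 1.81 (1.22 to 2.67). *Itgae* and *Ccr9* had no UMI in the *Ccl5* group against 25 and 32 UMIs in cells without *Ccl5*, at least 2.73-fold and 3.50-fold lower against the limit of 3 counts, and with exact upper limits of the ratio of 0.485 and 0.372. *Dapl1*, a gene of naive CD8 T cells, had 2 UMIs against 44, and *Igfbp4* 2 against 54, ratios of 0.139 (0.0163 to 0.531) and 0.113 (0.0133 to 0.428). In the *Ccl5* group *Ly6c2* and *Il2rb* were thus higher, and *Itgae*, *Ccr9*, *Dapl1* and *Igfbp4* lower, than in cells without *Ccl5*. *Cst3*, a cystatin abundant in dendritic cells, stood at 556 against 77.3 CPM, but at 64.4 against 54.1 CPM without cells with signs of another cell. The 2 cells with the most *Ccl5* held 9 of the 11 *Fscn1* UMIs, a gene of mature dendritic cells, and are among the cells left out.

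**Figure D4:**
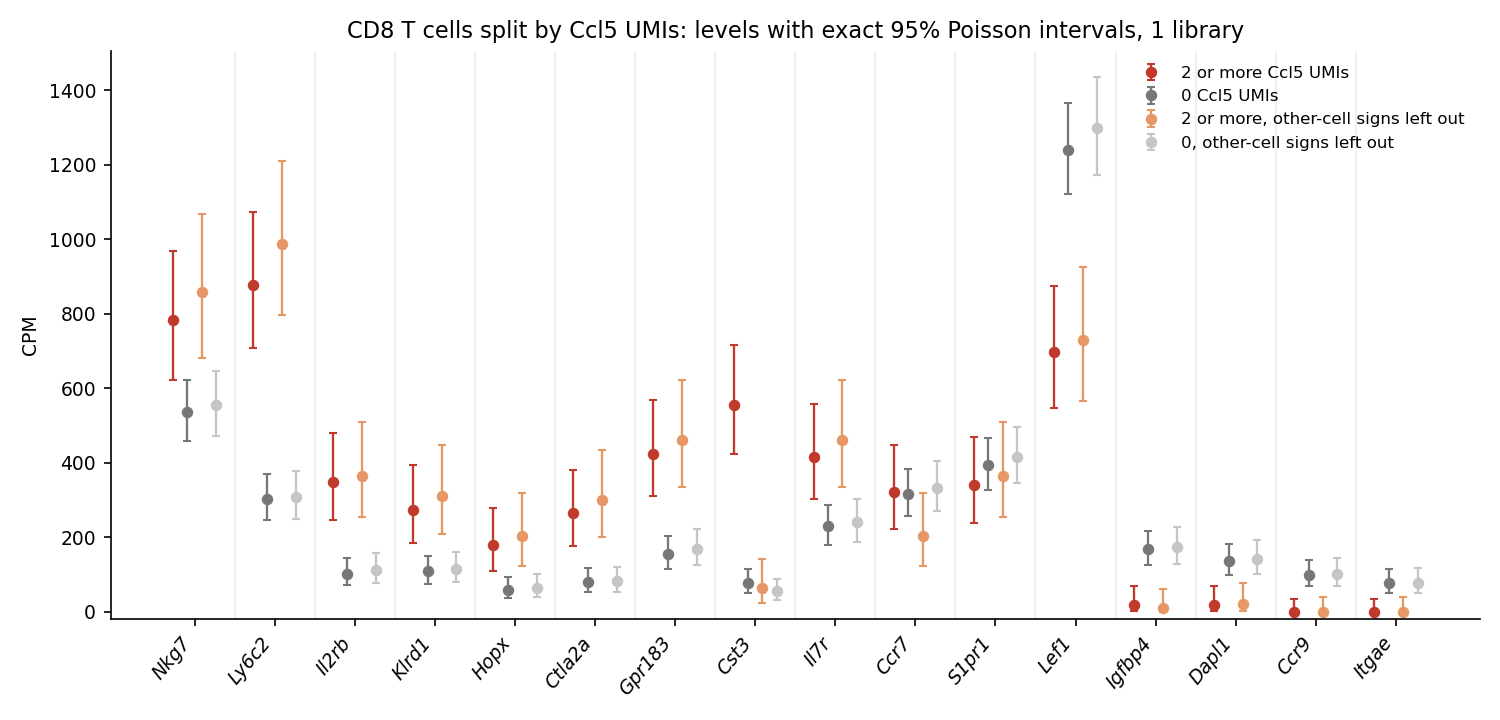
Levels in CPM (vertical axis, linear) of 16 genes in the 38 CD8 T cells with at least 2 *Ccl5* UMIs and the 153 with none, and in the 35 and 142 of these without signs of another cell. Points are summed levels and bars exact 95% Poisson intervals. *Ly6c2*, *Il2rb* and *Klrd1* are higher with *Ccl5*, *Lef1*, *Igfbp4*, *Dapl1*, *Ccr9* and *Itgae* lower, and *Cst3* is higher only while cells with signs of another cell are kept.

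Sex-linked transcripts were uneven across classes of this pool of both sexes. *Xist*, the RNA that coats the inactive X chromosome of females, was in 157 of 206 CD8 T cells (76.2%), at 1321 CPM (1219 to 1428), and in 41.9% of fibroblasts, at 531 CPM (521 to 542). The Y-linked genes *Ddx3y*, *Eif2s3y*, *Kdm5d* and *Uty* together gave 2 UMIs in CD8 T cells, 4.21 CPM (0.510 to 15.2), and both were in cells that also held *Xist*. They gave 139 CPM (134 to 145) in fibroblasts and 178 CPM (156 to 203) in 296 endothelial cells, taken by at least 3 UMIs of *Pecam1*, *Cdh5* and *Kdr*. Other lymphocytes stood between, at 10.1 CPM in CD4 T cells, 20.04 CPM in regulatory and innate-like T cells and 49.5 CPM in B cells. None of the 49 CD8 T cells without *Xist* held a Y-linked UMI, which by the limit of 3 counts allows a share of up to 6.12% (exact upper limit 7.25%), against 14.5% of 110 such B cells and 40.1% of 3607 such fibroblasts. Y-linked UMIs were thus few in CD8 T cells, as in the other T cell classes, at this depth. How many animals of each sex gave these cells was not tested.

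**Figure D5:**
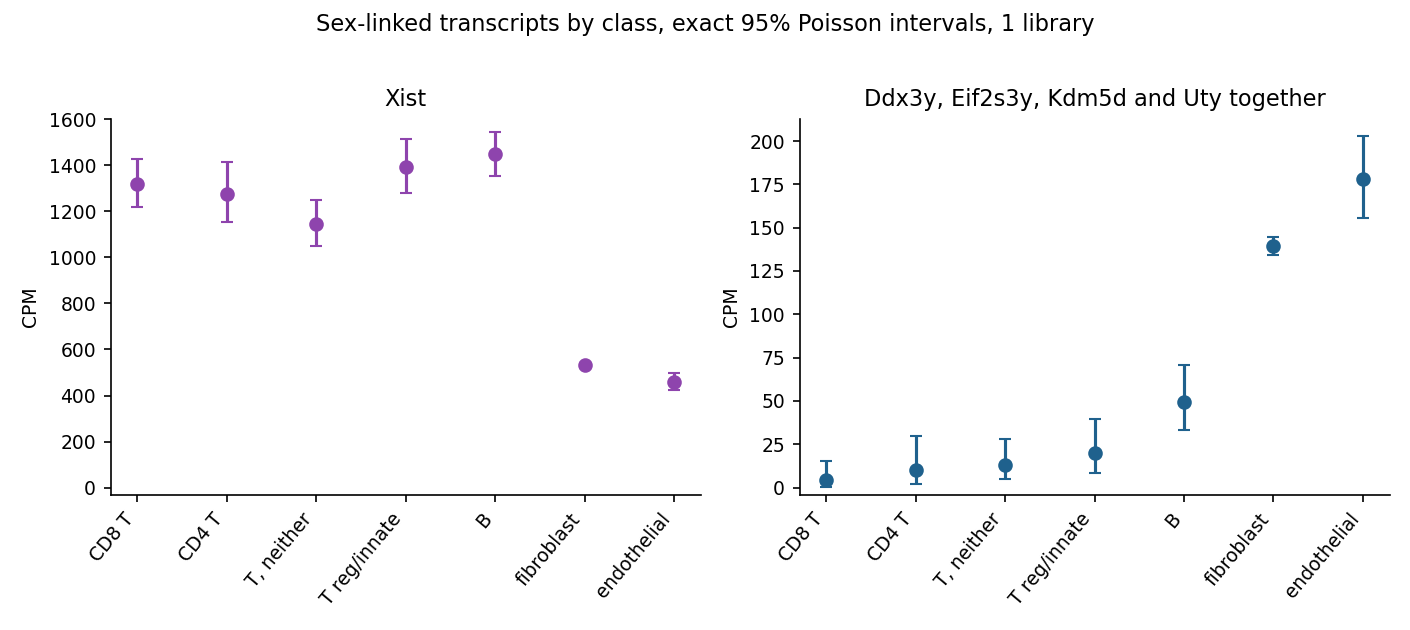
Levels in CPM (vertical axes, linear) of *Xist* (left) and of the 4 Y-linked genes together (right) in each class of the library. Points are summed levels and bars exact 95% Poisson intervals. *Xist* is higher in every lymphocyte class (1321 CPM in CD8 T cells) than in fibroblasts (531 CPM), and the Y-linked sum is lowest in CD8 T cells, at 4.21 CPM, with an interval that overlaps those of the other T cell classes.

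Receptor variable genes were read in few cells. The library primes from the 3 prime end of transcripts, and whether that limited these counts was not tested. The 163 *Trav* and *Trbv* genes gave 42 UMIs in 33 CD8 T cells, spread over 28 genes, and no gene was in more than 3 cells. *Trbv19*, *Trbv12-2*, *Trav16n* and *Trav3-3* were those in 3. The other cells gave no such UMI, so the variety of receptors could not be read at this depth. Of 13 gamma delta and innate-like T cell genes, of which the rule had limited *Zbtb16*, 12 had no UMI, and *Trdc*, the delta chain constant gene, had 2. *Foxp3*, the regulatory T cell factor, had none, and 1 of its list's genes was tested outside the rule and was not called.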

How the data were processed

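The data are 1 library of dissociated pancreas (10x Genomics 3 prime chemistry, version 3.1). The authors deposited UMI counts for 32285 genes in 11789 barcodes, which the submitters' processing notes credit to Cell Ranger 7.1.0 and mm10. Per the labels and methods, dead cells were removed before loading. Any removal of free RNA by the authors cannot be seen in the file. Counts were summed over the cells of a class in Python 3.11.15 (numpy 2.4.6, scipy 1.17.1, pandas 2.3.3) and divided by the class total, as CPM. Intervals are exact Poisson (levels), Clopper-Pearson (shares) and conditional binomial (ratios), at 95%, and cover counting error only. The script was tested on simulated data. Doublets were scored with Scrublet (scanpy 1.11.5) and kept. The members and the gene lists were chosen with earlier results of these data known. Genes named were list genes with at least 20 UMIs in CD8 T cells, other list genes that a group turned on, the 15 highest and 15 lowest ratios outside the rule, and the 10 most abundant genes, the first of which was *Rps29* with 6881 UMIs. A few genes are not reported here, and the naive set counted per cell was reduced to 4 genes for that reason. The split by *Ccl5*, the limits for signs of another cell and a few named genes were chosen after values were seen. Coordinates are of GRCm38, where all 419 named identifiers matched. Promoters are from RefSeq (GRCm38.p6). *Cd8b1*, *Ccl5*, *Klrd1* and *Gm44174* had no entry. Alternatives changed the limits of the rule, scaling, minimum counts, added CPM, thinning and subtraction of a stand-in for free RNA. That stand-in was the summed profile of all 11789 deposited barcodes, cells included, scaled to the acinar UMIs of each class. No profile of empty droplets was used.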

Additional observations from a re-analysis of the deposited data

Results flagged for a closer look

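Outside the main measurement, 10 barcodes at or under the lower limit of 800 UMIs met the rest of the rule for CD8 T cells, above the limit of 3 that a count of 0 allows. A further 1 barcode at or over the upper limit of 10000 UMIs met it, and none at or over the mitochondrial limit. These barcodes are in none of the values given, and what they are was not tested.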

How the results depend on the processing

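With 1 library, no replicate could be left out. No paired analysis was possible because the library is the only sample and no comparison came from a test. In the settings in which genes were followed (all but thinning), no followed gene past 2-fold moved to the other side of 1, while the balance of genes higher and lower turned, as given in the report. The ratio of *Ccr7*, within 2-fold, ran from 0.975 to 1.35. The share of retained barcodes was 1.41% with at least 2 CD8 UMIs, 1.73% with at least 3 T cell UMIs, 1.58% with no UMI of the regulatory and innate-like genes and 2.49% with no limit on them. It was 2.50% without cells with signs of another cell. Barcodes with such signs then also left the total, cells of other types among them, so that share is not comparable with the others. Of barcodes with T cell UMIs the share was 12.7%, 14.2% and 22.4% with at least 2 CD8 UMIs, no UMI and no limit. Genes at least 2-fold higher than in CD4 T cells numbered 212 (169 lower) with at least 2 coreceptor UMIs in both classes, 143 with free RNA subtracted, 153 without enzyme, ribosomal and mitochondrial genes in the total, 43 with a minimum of 50 UMIs, and 198 and 41 with 5 and 50 CPM added. Genes lower numbered 297 with free RNA subtracted, 53 and 235 with a minimum of 50 and 1 UMIs, and 285 and 56 with 5 and 50 CPM added. *Nkg7* stood at 519 CPM with no limit on the excluded genes, 730 CPM with free RNA subtracted and 927 CPM with the reduced total, and *Lef1* at 1336 and 1706 CPM under the last pair. The share of cells with a memory set UMI was 90.8% over 1500 UMIs and 56.8% thinned. The ratio of *Bach2* ran from 0.469 to 0.552 and crossed the threshold. So did *Tox*, at 0.503 with no limit on the excluded genes, *Satb1*, at 0.464 with at least 2 coreceptor UMIs, and *Bcl2*, at up to 2.19 over 1500 UMIs. The ratio with 20 CPM added moved over 1.5 times, with no call lost, for *Ccl5* (21.2; 11.7 without cells with signs of another cell and 45.1 with free RNA subtracted), *Plac8* (10.9; 6.30 with no limit), *Fgf13* (5.67; 10.9), *Fam241a* (4.51; 6.96) and *H2-Q7* (3.96; 6.58) with at least 2 coreceptor UMIs, and *Tgfbr3* (0.191; 0.0879) with free RNA subtracted. The level of *Ccl5* ran from 432 to 1187 CPM, the lowest without cells with signs of another cell. Free RNA here is the stand-in described above, which is a pooled profile of deposited barcodes. The causes of these shifts were not tested. Genes under about 20 UMIs are limited by depth.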
